A study of Rattus norvegicus with 4 samples.

Results

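Fos, Fosb, Fosl2, Jun and Junb were followed through nuclei of the rat nucleus accumbens, a region of the ventral striatum. The genes were taken by their symbols from the deposited feature lists, and each of the 5 symbols matched 1 of the 30560 genes listed. Nuclei came from adult Sprague-Dawley rats of 90 to 120 days, with no genetic change named in the labels. Rats were given 7 daily intraperitoneal injections of saline or of cocaine at 20 mg per kg, each followed by an open field, and tissue was taken 1 h after the last injection. Each of the 4 libraries (saline female, saline male, cocaine female and cocaine male) pooled a 2 mm punch, centred on the core of the accumbens, from 4 rats. A pool cannot show how its rats differed, and the core and its surround were not separated.

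Fos and Jun proteins form the transcription factor AP-1. A Fos protein usually binds DNA paired with a Jun protein, whereas Jun proteins can also pair with one another. Their genes are immediate-early genes, transcribed within minutes of calcium or cyclic-AMP signals without new protein synthesis. In the striatum, drugs that raise dopamine are known to induce Fos in neurons, and a truncated, long-lived product of Fosb, ΔFosB, builds up with repeated drug exposure. The 3′ counts are per gene, so full-length Fosb and ΔFosB could not be separated here.

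The promoters of Junb and Fosl2 are printed because these genes were called higher after cocaine in at least 1 cell class, and that of Fosb as the other Fos family promoter matched. They are RefSeq sequences of rat build GRCr8, 250 bases before to 50 bases after each gene start, read in the direction of the gene, and 3 of the 5 genes had an entry. Capitals mark matches to TGACGTCA (the cyclic-AMP response element), its core TGACG, the AP-1 site TGANTCA, the CArG box (bound by serum response factor) or TATAAA (the TATA box), searched on both strands. TGACG lies within TGACGTCA, so matches to these letters can overlap.
Junb, chr19:40080876-40081175, plus strand: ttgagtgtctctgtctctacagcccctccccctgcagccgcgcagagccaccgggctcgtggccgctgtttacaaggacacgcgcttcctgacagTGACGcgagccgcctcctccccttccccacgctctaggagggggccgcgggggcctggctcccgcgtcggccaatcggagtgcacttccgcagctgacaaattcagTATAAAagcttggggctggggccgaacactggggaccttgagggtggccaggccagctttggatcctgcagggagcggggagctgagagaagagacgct
Fosl2, chr6:30039220-30039519, minus strand: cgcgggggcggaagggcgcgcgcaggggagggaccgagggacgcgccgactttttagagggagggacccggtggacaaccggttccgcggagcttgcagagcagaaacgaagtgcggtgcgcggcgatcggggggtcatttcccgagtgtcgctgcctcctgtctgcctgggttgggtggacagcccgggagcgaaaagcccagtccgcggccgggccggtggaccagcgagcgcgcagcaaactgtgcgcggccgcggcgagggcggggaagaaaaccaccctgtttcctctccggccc
Fosb, chr1:88089135-88089434, minus strand: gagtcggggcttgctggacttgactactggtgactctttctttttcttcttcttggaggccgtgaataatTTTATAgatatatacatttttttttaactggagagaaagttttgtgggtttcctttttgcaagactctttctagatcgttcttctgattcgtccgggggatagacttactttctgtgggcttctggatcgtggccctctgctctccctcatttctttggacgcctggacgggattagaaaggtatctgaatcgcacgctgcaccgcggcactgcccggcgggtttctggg
The Junb window held TGACG at position -155 and TATAAA at position -49 relative to the start, with a GC content of 65.3%. The Fosl2 window, at 70.7% GC, held none of these motifs. The Fosb window, at 47.7% GC, held the reverse complement of TATAAA at position -180. Among 33469 promoter windows of the same length, TGACGTCA was found in 1.83%, TGACG in 21.2%, TGANTCA in 7.33%, the CArG box in 1.64% and TATAAA in 14.2%.

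The 4 libraries held 31484217 to 40737786 unique molecular identifiers (UMIs, each 1 captured RNA molecule), and 24843 of 26228 barcodes were kept, with 81 barcode sequences found in more than 1 library. Nuclei were clustered without the 5 genes and named from markers, which gave 11 classes with enough nuclei for a test. The projection neurons of the region, the medium spiny neurons (MSNs), fell into classes marked by the dopamine receptor genes Drd1 (D1-MSN-like, 4899 nuclei) and Drd2 (D2-MSN-like, 3468 nuclei) and an eccentric MSN-like class (1997 nuclei). With each nucleus thinned to 1000 UMIs, Drd1 was seen in 8.64% to 11.3% of D1-MSN-like nuclei per library and at most 0.146% of D2-MSN-like nuclei. Class sizes differed between libraries: the saline female library had 834 D1-MSN-like nuclei against 1350 to 1363 in the others, and glutamatergic neuron-like nuclei numbered 30 and 50 in the saline libraries against 251 and 116 in the cocaine libraries. Counts were summed per library and class, and levels below are counts per 1000000 UMIs of the class (CPM). Where values stand in pairs, the female pool comes before the male pool. Every p-value rests on these 4 pools, with n = 2 libraries per treatment, and on a spread moderated across genes. In D2-MSN-like, eccentric MSN-like, oligodendrocyte-like, astrocyte-like and microglia-like nuclei, a gene's own spread between pools had no weight in the test. That spread kept some weight in D1-MSN-like nuclei and in all nuclei, so calls in these fits do not measure the same thing. Its weight in the fits of single clusters is not given here.

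The levels of the 5 genes separated the cell types in different ways. Levels are compared here within a gene across classes, as means of the 4 libraries. Fos, the founding Fos family gene, had its highest mean in glutamatergic neuron-like nuclei at 21.2 CPM, followed by eccentric MSN-like nuclei at 11.7 CPM. It stood at 6.71 CPM in D2-MSN-like and 5.87 CPM in D1-MSN-like nuclei, and at 0.545 CPM in oligodendrocyte-like nuclei. No Fos UMI was counted in 771 microglia-like nuclei, which allows up to 2.68 CPM or 0.389% of nuclei with a UMI. In the order of Fos levels, all neighbouring classes overlapped between libraries except astrocyte-like nuclei at 4.05 CPM, which lay above oligodendrocyte-like nuclei.

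Fosb was highest in eccentric MSN-like nuclei at 9.23 CPM and glutamatergic neuron-like nuclei at 8.92 CPM, with D1-MSN-like nuclei at 5.84 CPM and D2-MSN-like nuclei at 4.34 CPM. It was not counted in microglia-like nuclei or in 237 Sst interneuron-like nuclei, where a count of 0 allows up to 2.23 CPM. The ranges of neighbours in this order overlapped. Fosl2, which encodes the Fos family protein Fra-2, had its highest mean in microglia-like nuclei at 21.5 CPM and was at 8.23, 8.03 and 7.34 CPM in D1-MSN-like, D2-MSN-like and eccentric MSN-like nuclei. The microglia-like mean of Fosl2 rests on 26 UMIs, at 13.0 to 30.2 CPM per library, and overlapped glutamatergic neuron-like nuclei, the next class. No Fosl2 UMI was counted in 1730 astrocyte-like nuclei, which allows 0.539 CPM, and every library of oligodendrocyte-like nuclei, with a mean of 0.955 CPM, lay above that class.

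The Jun family genes differed in how oligodendrocyte-like nuclei compared with MSNs. Jun had its highest means in microglia-like nuclei at 24.9 CPM and oligodendrocyte-like nuclei at 19.2 CPM. Its lowest means were in D2-MSN-like nuclei at 2.10 CPM, Pvalb/Pthlh interneuron-like nuclei at 2.45 CPM and D1-MSN-like nuclei at 2.52 CPM. The microglia-like mean of Jun rests on 27 UMIs, at 10.7 to 52.0 CPM per library, and overlapped oligodendrocyte-like nuclei. Eccentric MSN-like nuclei, at 5.21 CPM, had more Jun than D1-MSN-like nuclei in every library. Junb was also highest in microglia-like nuclei, at 97.6 CPM, but stood at 39.9, 37.2 and 37.7 CPM in D1-MSN-like, D2-MSN-like and eccentric MSN-like nuclei and at 4.56 CPM in oligodendrocyte-like nuclei. The ranges of neighbours in the order of Junb levels overlapped. These orders are descriptions of 4 libraries, and no test was run on them.

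**Figure D1:**
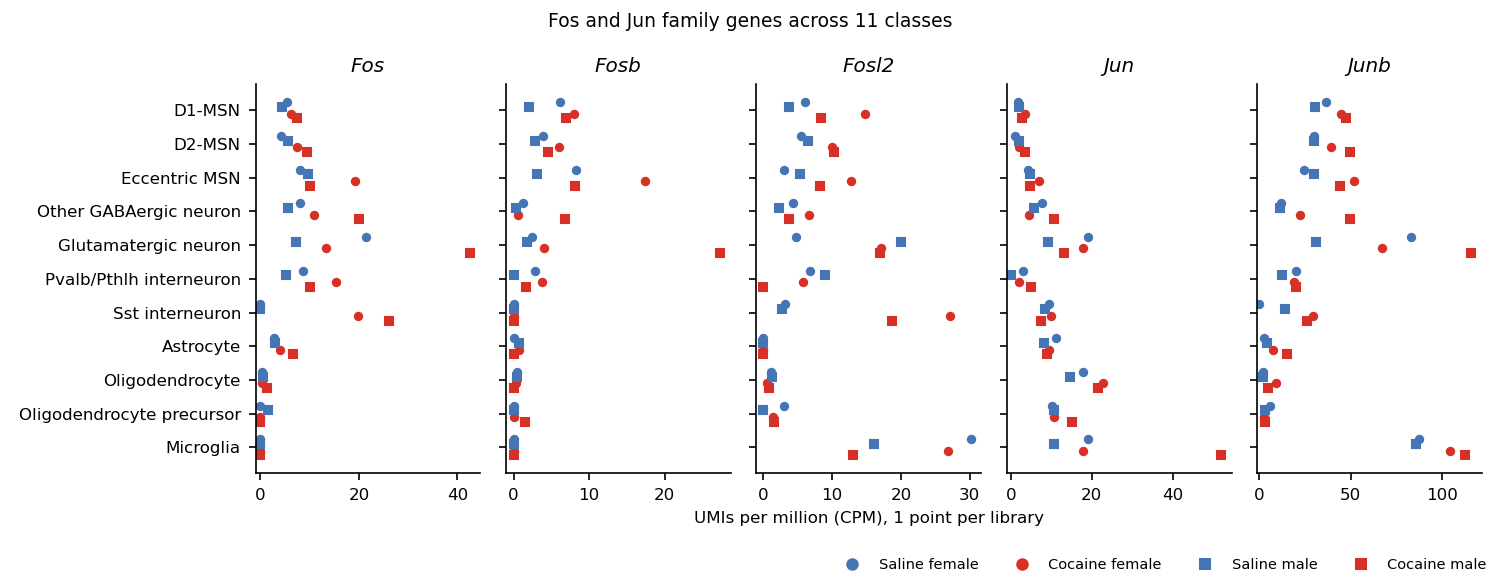
Level of each gene (x axis, CPM; each gene has its own scale) in 11 classes (rows), with 1 point per library, blue for saline, red for cocaine, circles for female and squares for male pools. Jun lies near 20 CPM in oligodendrocyte-like nuclei and near 2 CPM in the D1 and D2 classes, whereas Junb is low in oligodendrocyte-like nuclei and above 24 CPM in every MSN library.

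Summed over all nuclei, all 5 genes were higher in each cocaine library than in each saline library, and Junb passed the test. Junb, a Jun family gene whose protein pairs with Fos proteins, had 856 and 746 UMIs after saline and 1454 and 1282 after cocaine. Its level went from 23.8 ± 0.605 CPM (SD, n = 2) to 42.0 ± 3.68 CPM, which is 0.80 ± 0.07 on the log2 scale (SE of the fold change; adjusted p from edgeR = 0.0261). Leaving out any 1 library, in fits that also dropped the sex term, gave log2 fold changes from 0.72 to 0.89. With all 4 libraries kept, dropping the sex term alone ended the call. Of 16527 genes tested, 0.0303% were called higher and 20.2% had both cocaine libraries above both saline libraries.

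The other 4 genes did not pass at the level of all nuclei. Fos had 198 and 153 UMIs after saline and 316 and 287 after cocaine, a difference of 0.82 ± 0.14 on the log2 scale (edgeR adjusted p = 0.119). Fosb had 124 and 59 against 228 and 181 UMIs, with a log2 fold change of 1.23. Fosl2 had 180 and 146 against 438 and 225 UMIs (1.01 on the log2 scale), and Jun 227 and 140 against 269 and 195 (0.38). The class sizes given above differ between libraries, and their part in these sums was not tested.

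In D1-MSN-like nuclei, all 5 genes were higher in each cocaine library than in each saline library, but none passed the test across 13259 genes. Fos had 46 and 47 UMIs after saline and 71 and 74 after cocaine, or 5.29 and 4.43 CPM against 6.23 and 7.52 CPM. Fosb had 6.21 and 2.07 CPM against 8.07 and 7.01 CPM, with the saline male library at 22 UMIs far below the saline female library at 54. The log2 fold changes were 0.48 ± 0.23 for Fos and 0.92 ± 0.31 for Fosb.

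Fosl2 had the largest fold change of the 5 genes in D1-MSN-like nuclei. It had 53 and 39 UMIs after saline and 169 and 82 after cocaine, or 6.1 and 3.67 CPM against 14.8 and 8.33 CPM. The cocaine female library stood highest, and the lowest cocaine library was above the highest saline library. This is 1.21 ± 0.19 on the log2 scale (edgeR adjusted p = 0.0791). In fits without the sex term, it was 1.65 without the saline female library and 0.91 without the saline male library. It was 0.74 without the cocaine female library and 1.61 without the cocaine male library.

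Of the Jun family in D1-MSN-like nuclei, Jun was sparse, with 16 and 22 UMIs after saline and 39 and 27 after cocaine and a log2 fold change of 0.62 ± 0.33. Junb had 36.7 and 30.8 CPM after saline and 44.8 and 47.4 CPM after cocaine, from 319, 327, 510 and 466 UMIs. The change of Junb was 0.43 ± 0.10 on the log2 scale (edgeR adjusted p = 0.375). Thus 0 of 5 genes were called by edgeR, 3 had an unadjusted p under 0.05, as did 8.22% of all genes tested, and DESeq2 also called 0. Among all genes tested in this class, 0.0302% were called higher and 20.3% had both cocaine libraries above both saline libraries.

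The D1-MSN-like class joined 2 clusters, one led by Ebf1, Reln and Pdyn (cluster 2, 3099 nuclei) and one led by Htr4, Isl1 and Nts (cluster 4, 1800 nuclei). Cluster 4 had 218 nuclei in the saline female library and 443 to 599 in the others. In cluster 2, Fosl2 rose from 37 and 23 UMIs to 114 and 59, by 1.40 ± 0.24 on the log2 scale (edgeR adjusted p = 2.90e-06). Fosb in cluster 2 rose from 43 and 19 UMIs to 67 and 56, by 0.89 ± 0.26 on the log2 scale (edgeR adjusted p = 0.0370). The share of all genes called higher in cluster 2 was 1.37% (170 genes), against 0.0302% (4 genes) in the whole D1-MSN-like class. The spread was moderated anew in each fit, so adjusted p values of the cluster and the class do not measure the same thing.

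In cluster 4 it was Junb that passed, with 61 and 126 UMIs after saline and 166 and 172 after cocaine, or 26.8 and 26.2 CPM against 35.3 and 49.3 CPM. Its log2 fold change was 0.69 ± 0.16 (edgeR adjusted p = 0.0488), in a cluster where 0.311% of genes were called higher. Fosl2 in cluster 4 had 16 and 16 UMIs against 55 and 23 (0.84 on the log2 scale, edgeR adjusted p = 0.491). The clusters were not shown to differ: the fold change in cluster 4 minus that in cluster 2 was -0.53 for Fosl2 (95% interval -1.34 to 0.29) and 0.28 for Junb (-0.16 to 0.71). The edgeR adjusted p was 0.9998 for each of the 5 genes, against 0.079% of genes called in that comparison.

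In D2-MSN-like nuclei, Junb rose and the other 4 genes were higher in each cocaine library without passing the test. Fos had 4.20 and 5.64 CPM after saline and 7.51 and 9.50 CPM after cocaine, from 29, 36, 55 and 66 UMIs. Fos thus stood 0.74 ± 0.26 higher on the log2 scale (edgeR adjusted p = 0.173). Fosb had 3.91 and 2.82 CPM against 6.01 and 4.60 CPM, with the smallest gap between groups of the 3 Fos family genes and a log2 fold change of 0.61. Fosl2 had 5.50 and 6.43 CPM against 9.97 and 10.2 CPM, a difference of 0.72 ± 0.24 on the log2 scale (edgeR adjusted p = 0.141).

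Jun had 7 and 12 UMIs in the saline D2-MSN-like nuclei and 15 and 24 in the cocaine nuclei (0.88 ± 0.45 on the log2 scale). Junb had 207 and 193 UMIs after saline and 287 and 344 after cocaine. Its saline libraries lay close together at 30.1 ± 0.190 CPM (SD, n = 2), and the cocaine libraries at 39.2 and 49.5 CPM stood above them. The rise was 0.51 ± 0.12 on the log2 scale (edgeR adjusted p = 0.00424). In this class 0.447% of genes were called higher and 23.2% had both cocaine libraries above both saline libraries. Leaving out 1 library at a time, in fits that also dropped the sex term, gave log2 fold changes from 0.35 to 0.66. With all 4 libraries kept, the Junb call was lost without the sex term and under DESeq2 (0.50, adjusted p = 1).

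In eccentric MSN-like nuclei, a class marked here by genes such as Chst9, Grm8, Casz1 and Tac3, Junb and Fosl2 rose. Fos had 7.96 and 9.74 CPM after saline and 19.2 and 10.0 CPM after cocaine, with the cocaine female library far above the rest and a log2 fold change of 0.70 ± 0.29. Fosb had 8.26 and 3.14 CPM against 17.4 and 8.18 CPM, so the cocaine male library lay just under the saline female library. The fold change of Fosb was 1.15 ± 0.33 on the log2 scale (edgeR adjusted p = 0.0514).

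Fosl2 had 10 and 17 UMIs in the saline eccentric MSN-like nuclei and 42 and 22 in the cocaine nuclei, or 3.06 and 5.34 CPM against 12.8 and 8.18 CPM. The gene rose by 1.31 ± 0.36 on the log2 scale (edgeR adjusted p = 0.0430). Leaving out 1 library at a time, in fits that also dropped the sex term, gave 0.93 to 1.78. With all libraries kept, dropping the sex term alone ended the call. Jun, with 13 to 23 UMIs per library, had a log2 fold change of 0.38 ± 0.41.

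Junb had 81 and 95 UMIs in the saline eccentric MSN-like nuclei and 171 and 119 in the cocaine nuclei, with means of 27.3 ± 3.59 and 48.1 ± 5.54 CPM (SD, n = 2). Junb rose by 0.80 ± 0.17 on the log2 scale (edgeR adjusted p = 0.000647). Leaving out 1 library at a time, without the sex term, gave 0.66 to 0.96. The Junb call was lost when only the sex term was dropped. DESeq2 called neither gene in this class. Of all genes tested in it, 0.476% were called higher and 19.9% had both cocaine libraries above both saline libraries, as did 4 of the 5 genes. The class joined 2 clusters, and Junb passed in the one led by Casz1 and Tac3 (cluster 9, 0.88 ± 0.19, edgeR adjusted p = 0.00471), where 0.311% of genes were called higher. In the cluster led by Chst9 and Grm8 (cluster 7) the log2 fold change of Junb was 0.38 ± 0.30 (edgeR adjusted p = 0.889), with 0.0101% of genes called higher. Fosl2 passed in neither cluster. In cluster 9 it had 7 and 6 UMIs after saline and 18 and 18 after cocaine (1.43 ± 0.50 on the log2 scale, edgeR adjusted p = 0.255). In cluster 7 it had 3 and 11 UMIs against 24 and 4, so the male pools went from 9.06 to 3.92 CPM (1.15 ± 0.59, edgeR adjusted p = 0.816). The difference between these clusters was not tested. Markers of microglia, the class with the highest Junb level, summed to 7.96 and 6.28 CPM in the saline and 11.6 and 10.8 CPM in the cocaine eccentric MSN-like nuclei, with 0 of 7 at 0, and their part in the Junb call was not tested.

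**Figure D2:**
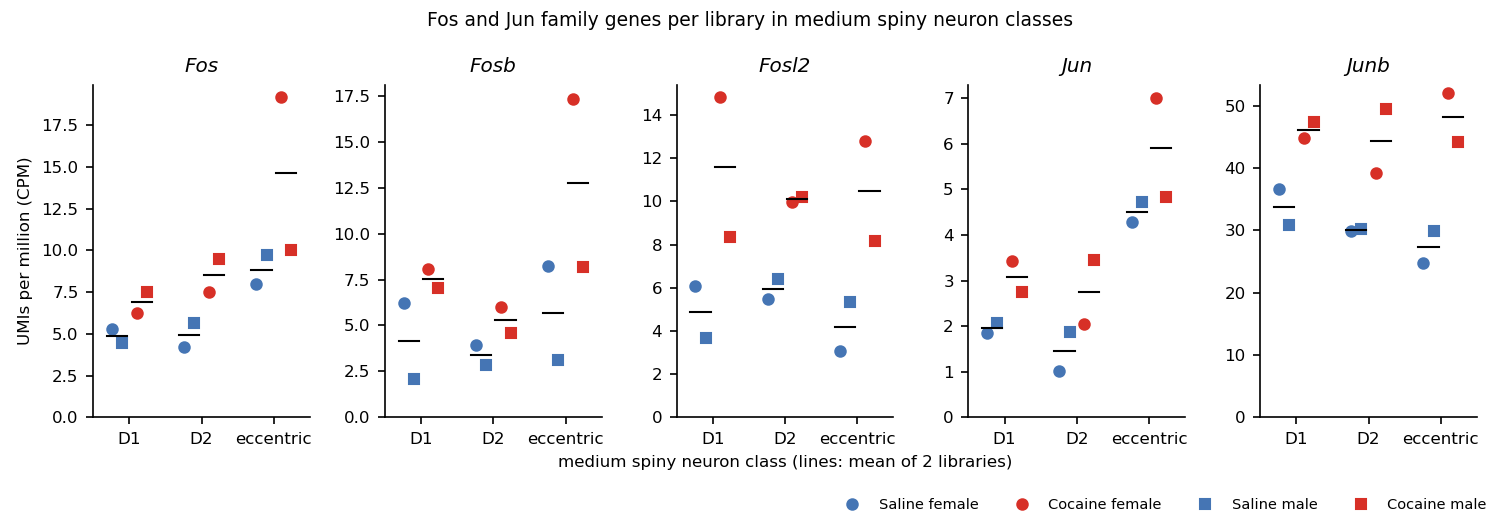
Level of each gene (y axis, CPM; each gene has its own scale) in the 3 MSN classes, with 1 point per library, blue for saline, red for cocaine, circles for female and squares for male pools, and black lines at the mean of 2 libraries. Red points lie above blue points for every gene and class except Fosb in eccentric MSN-like nuclei, where 8.18 CPM in the cocaine male library is below 8.26 CPM in the saline female library.

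The fold changes of the 5 genes in D2-MSN-like and eccentric MSN-like nuclei were not shown to differ from those in D1-MSN-like nuclei. D2-MSN-like and eccentric MSN-like nuclei were not compared with each other. With the marker gate on single nuclei, Fosl2 in D2-MSN-like minus D1-MSN-like nuclei was -0.84 (95% interval -1.47 to -0.21, edgeR adjusted p = 0.489). The values that follow are from the main classes. For D2-MSN-like minus D1-MSN-like nuclei the difference was 0.08 for Junb (95% interval -0.19 to 0.35, edgeR adjusted p = 0.962) and -0.53 for Fosl2 (-1.18 to 0.12, edgeR adjusted p = 0.831), with 0.0759% of genes called. For eccentric MSN-like minus D1-MSN-like nuclei it was 0.36 for Junb (-0.06 to 0.78) and 0.04 for Fosl2 (-0.91 to 0.99), with an edgeR adjusted p of at least 0.994 and 0% of genes called. The intervals of Fosl2 leave room for differences as large as its own fold change in D2-MSN-like nuclei.

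**Figure D3:**
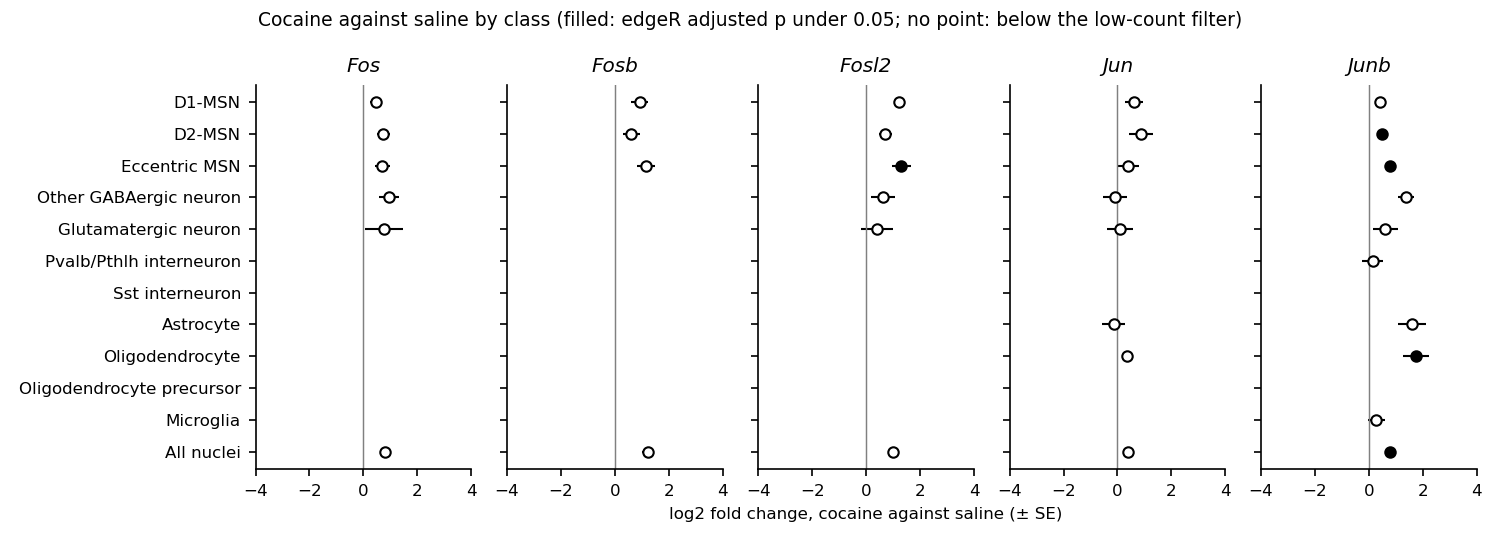
Log2 fold change of cocaine against saline (x axis, with SE bars; 0 is no change) for each gene in 11 classes and in all nuclei (rows), from the edgeR fit to 2 saline and 2 cocaine libraries. Filled points have an adjusted p under 0.05, and rows with no point had too few UMIs to be tested; filled points are Junb in D2-MSN-like, eccentric MSN-like and oligodendrocyte-like nuclei and in all nuclei, and Fosl2 in eccentric MSN-like nuclei.

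Of the 55 combinations of gene and class, 29 passed the filter on low counts, so the account of the remaining neurons rests mainly on Junb and Fos. In other GABAergic neuron-like nuclei Junb had 87 and 31 UMIs after saline and 70 and 80 after cocaine, or 11.9 and 11.6 CPM against 22.2 and 49.9 CPM. The difference was 1.38 ± 0.29 on the log2 scale (edgeR adjusted p = 0.674). Fits that left out 1 library at a time, and also the sex term, gave 0.88 to 2.01. Fos in this class had 8.08 and 5.61 CPM against 10.8 and 20.0 CPM, Fosl2 had a log2 fold change of 0.63 and Jun of -0.10. Of all genes tested there, 0.0165% were called higher.

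In glutamatergic neuron-like nuclei the pools of the same treatment differed as much as the treatments. Junb had 83.4 and 31.0 CPM after saline and 67.0 and 116 CPM after cocaine, so the groups overlapped, with a log2 fold change of 0.62 ± 0.48. Fos had 9 and 4 UMIs after saline and 36 and 45 after cocaine, but 21.4 and 7.29 CPM against 13.4 and 42.5 CPM, since the saline libraries held only 30 and 50 of these nuclei. The class joined 2 clusters in unequal parts, one led by Slc17a7 and Tafa1 (8 and 43 nuclei after saline, 188 and 57 after cocaine) and the other with 22 and 7 nuclei against 63 and 59. The part of this mix in the values was not tested. Fosb had 1 UMI in each saline library and 11 and 29 in the cocaine libraries and was not tested. None of the 4 genes tested passed, and 0% of genes were called higher in this class.

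Among interneurons, Fos in Sst interneuron-like nuclei was counted only after cocaine. It had 0 UMIs in each saline library, with 40 and 69 of these nuclei, 8 in the cocaine female and 7 in the cocaine male library. The cocaine group stood 5.02-fold above a saline floor of 3 counts, 4.45 CPM. That fold leaves out the counting error of the 15 cocaine UMIs, so it is not a lower limit. The UMIs came from 7 of 71 nuclei in the cocaine female library (9.86%, exact 95% interval 4.06 to 19.3%) and 7 of 57 in the cocaine male library (12.3%, 5.08 to 23.7%). Fosl2 in these nuclei had 1 UMI in each saline library and 11 and 5 in the cocaine libraries, and Junb had 0 and 5 against 12 and 7. Marker sums of other classes were also higher in both cocaine libraries of these nuclei: the 8 MSN markers stood at 2856 and 2876 CPM after saline and 3679 and 4121 CPM after cocaine, the 6 D1-MSN markers at 54.1 and 153 against 203 and 202 CPM, and the 7 eccentric MSN markers at 496 and 275 against 564 and 628 CPM, with none of these markers at 0 in all libraries. The 7 microglia markers, 2 of them at 0, summed to 6.36 and 5.55 against 14.8 and 11.2 CPM. Their part in the Fos, Fosl2 and Junb counts was not tested. The counts fell below the filter, so no test was made, and 0.269% of the genes tested in the class were called higher. In Pvalb/Pthlh interneuron-like nuclei Junb had 20.2 and 12.7 CPM against 19.1 and 20.0 CPM, with a log2 fold change of 0.14 ± 0.38 and 0.746% of genes called higher. Below the filter there, Fos had 9 and 4 UMIs after saline and 16 and 6 after cocaine, and Fosl2 7 and 7 against 6 and 0. Fosb had 3 and 0 against 4 and 1 UMIs, and Jun 3 and 0 against 2 and 3.

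In glia, Junb rose in oligodendrocyte-like nuclei from a very low level, and Jun did not pass. Junb had 9 and 5 UMIs after saline and 32 and 12 after cocaine, from 1308 to 1982 nuclei per library, or 2.10 CPM in each saline library against 9.06 and 4.97 CPM. Its log2 fold change was 1.75 ± 0.48 (edgeR adjusted p = 0.0279), and 0.791% of genes in the class were called higher. Leaving out 1 library at a time, without the sex term, gave 1.15 to 2.05. With all libraries kept, dropping the sex term alone ended the call. Each Junb-positive oligodendrocyte-like nucleus held a single Junb UMI. Jun had 77 and 35 UMIs after saline and 80 and 52 after cocaine (0.36 ± 0.21, edgeR adjusted p = 0.561). Below the filter, Fosl2 had 5 and 3 UMIs after saline and 2 and 2 after cocaine. Fosb had 2 and 1 against 1 and 0 UMIs, and Fos 1 and 1 against 1 and 3.

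Neuronal RNA was also counted in these oligodendrocyte-like nuclei. The 8 MSN markers, none of them at 0, summed to 690 and 674 CPM after saline and 695 and 689 CPM after cocaine. The 6 D1-MSN markers, with 0 of 6 at 0, stood at 17.7 and 28.2 CPM against 32.6 and 41.4 CPM. D2-MSN markers stood at 33.1 and 49.6 CPM against 44.5 and 87.7 CPM, with 1 of 6 at 0. So the D1-MSN markers were higher in each cocaine library, the D2-MSN markers overlapped, and 3 pan-neuronal markers stood higher too, at 63.4 and 56.8 CPM against 115 and 86.9 CPM. Per 1000 UMIs of MSN markers, Junb had 3.04 and 3.12 UMIs after saline and 13.0 and 7.21 after cocaine in oligodendrocyte-like nuclei, against 2.92 to 5.37 in the D1 and D2 classes. The part of this neuronal RNA in the Junb call was not tested. The Junb fold change in oligodendrocyte-like nuclei minus that in D1-MSN-like nuclei was 1.33 (95% interval 0.44 to 2.23, edgeR adjusted p = 0.628, with 0.066% of genes called).

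In astrocyte-like nuclei Junb had 4 and 6 UMIs after saline and 11 and 19 after cocaine, or 2.65 and 4.49 CPM against 7.37 and 15.5 CPM, and its log2 fold change of 1.60 ± 0.51 did not pass (edgeR adjusted p = 0.0969). MSN markers summed to 1236 and 1108 CPM in the saline and 1566 and 1482 CPM in the cocaine astrocyte-like nuclei. Thinned to 1000 UMIs, the share of these nuclei with a UMI of the MSN gene Pde10a was 6.30 and 4.11% against 25 and 16.9%. Drd1 did not rise, at 0.242 and 0.685% against 0 and 0.471%, nor did Drd2, at 0 and 0.228% against 0 and 0%. Penk was at 1.45 and 1.14% against 2.03 and 5.65%. Their part in the Junb values was not tested. Jun had 11 to 17 UMIs per library and a log2 fold change of -0.13 ± 0.43. In this class 0.551% of genes were called higher, and 0.029% differed from D1-MSN-like nuclei in their fold change, with Junb at 1.20 (95% interval 0.12 to 2.29, edgeR adjusted p = 0.980).

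Microglia-like nuclei, where Junb was highest, had 87.7 and 85.8 CPM of Junb after saline and 104 and 113 CPM after cocaine. The log2 fold change of 0.28 ± 0.31 did not pass (edgeR adjusted p = 0.898, with 0.145% of genes called higher). None of the 5 genes had enough UMIs for a test in oligodendrocyte precursor-like nuclei, where 0% of genes were called higher.

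Within the MSN classes, each gene had far fewer UMIs than there were nuclei, so only a minority of nuclei could hold a UMI. Junb, the gene with the most, had 1622 UMIs in 4899 D1-MSN-like nuclei. To compare libraries of unequal depth, each MSN nucleus was thinned to 4000 UMIs. In D1-MSN-like nuclei Junb was then seen in 9.98% (exact 95% interval 8.00 to 12.2%) and 8.28% (6.83 to 9.91%) of nuclei after saline and in 11.3% (9.60 to 13.1%) and 11.1% (9.42 to 13.0%) after cocaine. The cocaine libraries were higher, with overlapping intervals. Without thinning the shares were 18.6 and 13.3% against 19.2 and 17.6%, at median depths of 9969, 7304, 7853 and 6739 UMIs. Thinned to 1000 UMIs, Junb was seen in 2.08 to 4.50% of D1-MSN-like nuclei per library and in 0.204 to 0.871% of oligodendrocyte-like nuclei, whose median depths were 1512 to 2000 UMIs.

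In D2-MSN-like nuclei at 4000 UMIs, Junb was seen in 6.20 and 8.19% of nuclei after saline and 9.79 and 13.0% after cocaine. Fosl2 was seen in 1.92 and 1.81% of these nuclei after saline and 2.78 and 2.98% after cocaine, and in D1-MSN-like nuclei in 2.09 and 1.55% against 3.07 and 2.52%. Eccentric MSN-like nuclei had Junb in 8.37 and 9.59% of nuclei after saline and 13.1 and 10.6% after cocaine. The shares of Fos in eccentric MSN-like nuclei, 1.44 and 1.92% against 4.43 and 2.74%, also did not overlap between treatments.

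Part of the UMIs of each gene came from nuclei with several copies. In D1-MSN-like nuclei, nuclei with at least 2 UMIs of the gene held 57.2 to 65.5% of Junb UMIs and 65.2 to 77.8% of Fosb UMIs per library, with up to 25 Junb UMIs in 1 nucleus. For Jun, the gene with the fewest UMIs of the 5 in this class, that share was 0 to 17.9% per library, with 1.00 to 1.11 UMIs per positive nucleus and at most 3. It was 0 to 28.6% in D2-MSN-like and 15.4 to 40.0% in eccentric MSN-like nuclei. The levels of the genes differ, and these shares were not compared between genes. For Fosl2, a positive D1-MSN-like nucleus held on average 1.43 and 1.26 UMIs after saline and 2.38 and 1.64 after cocaine, and nuclei with at least 2 Fosl2 UMIs made up 1.32 and 0.370% against 2.57 and 1.11%. So the cocaine female library stood highest on both counts, and the cocaine male library lay under the saline female library in the share of nuclei with at least 2 Fosl2 UMIs. These counts were not thinned.

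Summed over the 4 libraries, pairs of the genes without Jun were counted in the same MSN nuclei more often than the product of their shares gives, though in few nuclei. Among 4642 D1-MSN-like nuclei thinned to 4000 UMIs, 30 held both Fosb and Fosl2, where the product of their shares gives 1.73, a ratio of 17.4 (10.8 to 21.8 over the 4 libraries). Fos and Junb were together in 49 nuclei against 8.34 from the product, a ratio of 5.87 (4.12 to 8.35). Junb was counted in 61.3% of Fos-positive and 9.27% of Fos-negative nuclei. It was counted in 68.7% of Fosb-positive, 46.3% of Fosl2-positive and 26.1% of Jun-positive nuclei.

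Pairs with Jun rest on few nuclei. At 4000 UMIs, Fos and Jun were together in 5 D1-MSN-like nuclei against 0.796 from the product, a ratio of 6.28 (5.13 to 8.08 over the 4 libraries), and Fosb and Jun in 3 against 0.692. Jun and Junb were together in 12 D1-MSN-like nuclei against 4.71 from the product, in 3 D2-MSN-like nuclei against 3.40 and in 3 eccentric MSN-like nuclei against 3.21. In eccentric MSN-like nuclei, Fos and Jun were together in 0 of the 1593 nuclei thinned to 4000 UMIs against 0.854 from the product, and with all UMIs in 4 of 1997 nuclei against 2.14. In D2-MSN-like nuclei, Fos and Junb were together in 39 nuclei against 6.08 and Fosl2 and Junb in 41 against 8.00. Pairs in a nucleus share its library, its cell state and any second nucleus in the droplet, and the counts are given as a description, with no test.

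**Figure D4:**
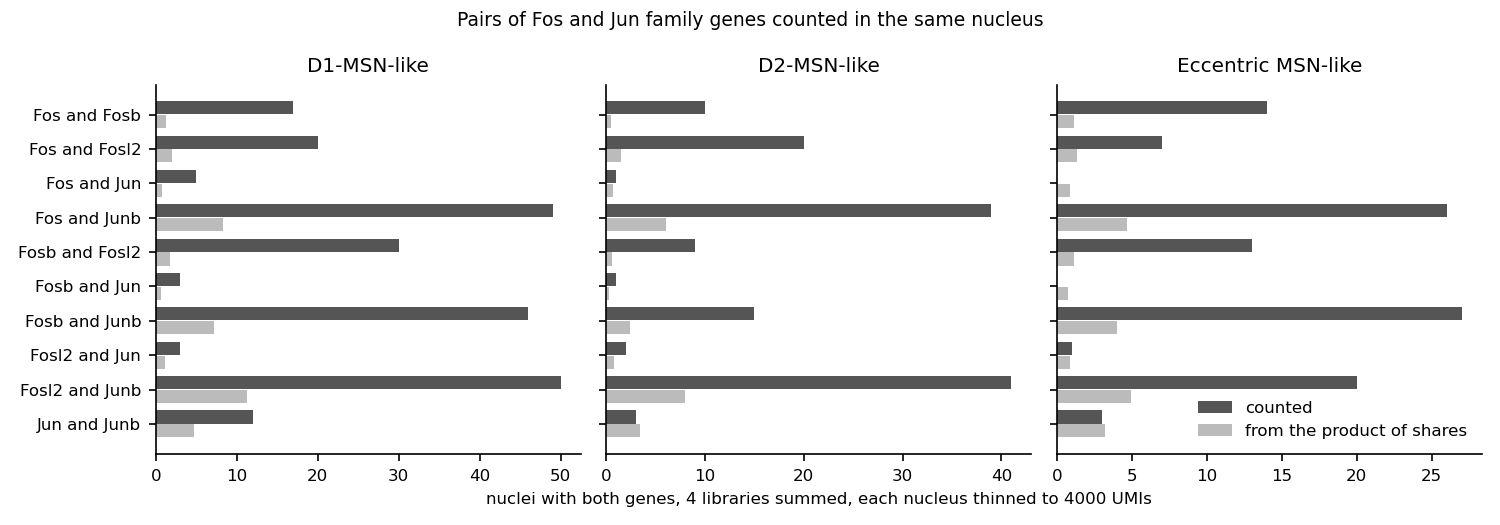
Number of nuclei with at least 1 UMI of both genes of a pair (x axis, dark bars, 4 libraries summed, each nucleus thinned to 4000 UMIs) and the number that the product of the shares of the single genes gives (light bars), for 10 pairs in the 3 MSN classes; each panel has its own scale. Dark bars are longer than light bars for each of the 6 pairs without Jun, such as 30 against 1.73 nuclei for Fosb and Fosl2 in D1-MSN-like nuclei, and pairs with Jun hold at most 12 nuclei.

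Nuclei with at least 2 of the 5 genes made up a larger share of each cocaine library than of each saline library in all 3 MSN classes. In D1-MSN-like nuclei at 4000 UMIs they made up 2.22 and 1.31% of nuclei after saline and 2.84 and 3.08% after cocaine. In D2-MSN-like nuclei they made up 1.33 and 1.57% against 2.34 and 3.42%, and in eccentric MSN-like nuclei 1.67 and 2.64% against 6.06 and 3.95%. The highest of these shares were in eccentric MSN-like nuclei after cocaine. With 2 libraries against 2 an exact permutation test cannot give a two-sided p under 0.33. Over all nuclei, with all UMIs, 37 and 28 nuclei of the saline libraries and 112 and 76 of the cocaine libraries held at least 3 of the genes, or 0.612 and 0.474% against 1.64 and 1.26%. All 5 genes were counted in 1 nucleus of each saline library and 5 nuclei of each cocaine library.

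**Figure D5:**
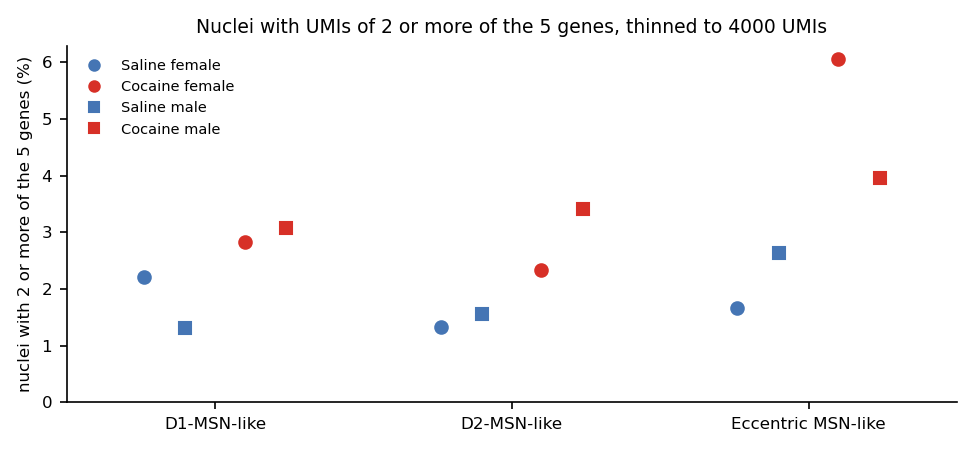
Share of nuclei with UMIs of at least 2 of the 5 genes (y axis, percent of nuclei with each nucleus thinned to 4000 UMIs) in the 3 MSN classes, with 1 point per library, blue for saline, red for cocaine, circles for female and squares for male pools. Both cocaine libraries lie above both saline libraries in each class, with the highest value, 6.06%, in the cocaine female eccentric MSN-like nuclei.

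Genes that work with AP-1 were read from 3 lists. The first held 16 other AP-1 and basic leucine zipper partners, such as Jund and Atf2, the next 15 regulators of Fos and Jun, such as Creb1 and Srf, and the last 8 genes known as FosB or AP-1 targets in the striatum, such as Cdk5 and Pdyn. Of those tested, 0 passed in either direction by edgeR in D1-MSN-like (10, 14 and 8 genes), D2-MSN-like (8, 14 and 8) or eccentric MSN-like nuclei (8, 14 and 8). At an unadjusted p under 0.05, 2 were counted in D1-MSN-like nuclei (Atf2 at 0.21 and Rps6ka5 at -0.20 on the log2 scale), 1 in D2-MSN-like nuclei (Sirt1 at 0.38) and 5 in eccentric MSN-like nuclei. Of all genes tested, 8.22, 10.0 and 9.19% had such a p in these classes. In oligodendrocyte-like nuclei 1 of the 8 targets passed, Gria2, an AMPA receptor subunit gene, with 420 and 181 UMIs after saline and 511 and 243 after cocaine (0.44 ± 0.12 on the log2 scale, edgeR adjusted p = 0.0163). Gria2 was picked out after its values were seen, and 0.791% of all genes in that class were called higher. The neuronal RNA counted in that class is given above, and its part in the Gria2 call was not tested. Of the 8 targets there 6 had a positive fold change, with a median of 0.19. The median log2 fold changes of the 3 lists in D1-MSN-like nuclei were -0.01, -0.03 and -0.01, beside 0.00 over all genes and 0.62 over Fos, Fosb, Fosl2, Jun and Junb. The median of these 5 genes was 0.72 in D2-MSN-like and 0.80 in eccentric MSN-like nuclei.

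The genes whose levels most resembled each of the 5 were found by Pearson correlation of log2(CPM + 1) over 44 points, 4 libraries in each of 11 classes, among 9320 genes. Fos was most like Gas2l1 and Cnih3 (0.83 each) and Fam81a (0.82). Fosb was most like Chrm1 (0.84), a muscarinic acetylcholine receptor gene, Homer1 (0.80), which encodes a postsynaptic scaffold protein, and Sipa1l1 (0.80). Fosl2 was most like Synj1 (0.82), Slc7a6 (0.80) and Mapk14 (0.79). Jun was most like Fmnl2 (0.82), Rc3h1 (0.80) and Rasa3 (0.79), and Junb was most like Limd2 (0.83), Rps6ka2 (0.81) and Spata2L (0.80). The points share libraries and depth, so these values are a description.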

How the data were processed

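Single-nucleus RNA was counted in 4 libraries. The authors deposited whole-number, unnormalized UMI counts per gene and nucleus, made with Cell Ranger 6.1.2 per the file headers and against rn7 per the submitters' processing notes. The gene annotation is not given in the sources used here.

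Kept nuclei had 200 or more genes and no more than 5% mitochondrial UMIs, and the nuclei with the highest Scrublet scores were removed at 0.8% per 1000 nuclei (4.97 to 5.81% per library). Clusters came from scanpy 1.11.5 and leidenalg 0.10.2 (30 components, 15 neighbours, resolution 0.5), leaving the 5 genes, other immediate-early genes, mitochondrial and sex-linked genes out. Clusters were named from marker lists where at least 3 markers were detected, and 1075 nuclei stayed unnamed. The naming limits, and the rule that a marker of the name be among the 10 leading genes of its cluster, were set after clusters were seen, and other names would move nuclei between classes. Pvalb was not among the listed symbols, so its class was named from other markers. Classes needed 25 nuclei per library. Vascular-like (84 nuclei) and cholinergic interneuron-like (83 nuclei) classes were not tested.

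Counts summed per library and class were tested with edgeR 4.0.16 (quasi-likelihood, TMM, filterByExpr on treatment groups) in R 4.3.3, with a term for sex and Benjamini-Hochberg adjustment over all genes of a class at 0.05. With 1 residual degree of freedom, the spread was moderated across genes. CPM values are counts per 1000000 without TMM, and fold changes use TMM. Differences between classes were fitted with library as a block. DESeq2 1.42.0 was an alternative. Fits that left out 1 library had no sex term.

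Named are the 5 genes in every class where they were tested, list genes that passed in an MSN class, and the 3 genes most like each of the 5 among genes with a mean of at least 10 CPM. Of the combinations of gene and class below the filter, only some are given. Cluster-leading genes and the list genes named as examples or at an unadjusted p were chosen outside that rule, after values were seen. The 5 genes and the lists were chosen with earlier results of these data known. Intervals and floors cover counting error only.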

Additional observations from a re-analysis of the deposited data

Results flagged for a closer look

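For 7 of the 34 tests the log2 ratio of cocaine to saline had opposite signs in the female and the male pools. With 1 library for each sex and treatment, the difference between the sexes was not tested, and most of these counts are small. In glutamatergic neuron-like nuclei the male ratio minus the female ratio was 3.13 for Fos (-0.74 in females, 2.39 in males, 94 UMIs in all), 2.20 for Junb (-0.33 and 1.87, 355 UMIs), 0.62 for Jun (-0.17 and 0.45, 75 UMIs) and -1.80 for Fosl2 (1.54 and -0.26, 77 UMIs). These ratios rest on 30 and 251 nuclei of the saline and cocaine female libraries and on 50 and 116 of the male libraries. They also rest on an unequal mix of the 2 clusters of the class, the one led by Slc17a7 and Tafa1 holding 8 and 188 of the female and 43 and 57 of the male nuclei, and the part of that mix was not tested. The difference was 1.69 for Jun in other GABAergic neuron-like nuclei (-0.77 and 0.91, 103 UMIs), 0.72 for Junb in Pvalb/Pthlh interneuron-like nuclei (-0.08 and 0.64, 63 UMIs) and 0.38 for Jun in astrocyte-like nuclei (-0.26 and 0.12, 53 UMIs).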

How the results depend on the processing

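The direction of the 34 fold changes was the same in all but 16 of 420 alternatives, while calls moved often. The share of all genes called higher moved too, from 0.0302% in D1-MSN-like nuclei to 1.37% in cluster 2 and 0.311% in cluster 4. In eccentric MSN-like nuclei it was 0.476%, against 0.0101% in cluster 7 and 0.311% in cluster 9. It is not given here for the other settings, so the counts of calls below cannot be set against it. In D1-MSN-like nuclei 0 of the 5 genes were called, against 3 with no filter on low counts, 1 with at least 500 genes per nucleus, 1 with no doublet removal, 1 at clustering resolution 1.0, 1 with the marker gate, 1 with fuzzy neighbour weights, 2 in cluster 2 alone and 1 in cluster 4 alone. Leaving out each library gave 0 to 2. In D2-MSN-like nuclei 1 was called, against 0 with DESeq2, 0 without the sex covariate, 0 with no doublet removal and 0 to 0 leaving out each library. In eccentric MSN-like nuclei 2 were called, against 0 with DESeq2, 0 without the sex covariate, 0 with at least 500 genes, 0 with no doublet removal, 1 at resolution 1.0, 1 with the marker gate, 1 with fuzzy weights, 0 in cluster 7 alone, 1 in cluster 9 alone and 0 to 2 leaving out each library. In oligodendrocyte-like nuclei 1 was called, against 0 with DESeq2, 0 without the sex covariate, 0 with no doublet removal, 0 with the marker gate, 0 with fuzzy weights and 0 to 0 leaving out each library. In all nuclei 1 was called, against 0 without the sex covariate and 0 to 0 leaving out each library. In other GABAergic neuron-like nuclei 0 were called, against 1 with no filter, 1 with no doublet removal and 0 to 1 leaving out each library. The causes were not tested. Fits that left out a library also dropped the sex term, so their counts cannot show how far calls rest on 1 library.

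Signs reversed only for values that did not pass the test. In glutamatergic neuron-like nuclei the log2 fold change was -0.12 for Fos, -0.0234 for Fosl2 and -0.13 for Jun with at least 500 genes, and -0.42, -0.0373 and -0.33 with no doublet removal. Jun went to 0.0116 in other GABAergic neuron-like nuclei with at least 500 genes and to 0.00828 in astrocyte-like nuclei at resolution 1.0. Leaving out each library gave -0.31 to 0.10 for Jun in astrocyte-like, -0.10 to 1.61 for Fos, -0.36 to 1.79 for Fosl2 and -0.28 to 0.69 for Jun in glutamatergic neuron-like, -0.68 to 0.53 for Jun in other GABAergic neuron-like and -0.10 to 0.56 for Junb in Pvalb/Pthlh interneuron-like nuclei.

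The share of nuclei with a Junb UMI, cocaine minus saline and thinned to 1000 UMIs, was 1.57 percentage points in D1-MSN-like nuclei (2.48 with all UMIs), 2.34 in D2-MSN-like nuclei (4.20 at 4000 UMIs) and 0.568 in eccentric MSN-like nuclei (3.63 with all UMIs, 2.86 at 4000 UMIs). The marker gate took 21616 of 24843 nuclei, with 1094 near its limit. The fuzzy weights, the eccentric MSN-like clusters apart and the comparison of D1-MSN-like clusters were chosen after seeing the data. The sex term of the main fit pairs the 1 saline and 1 cocaine library of each sex, and the fit without the sex covariate is the unpaired one, with the counts of calls given above. The labels give no other pairing of the pools.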
